A study of Mus musculus with 2 samples.

Results

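The 9 genes described here carry out or control the making and breaking of glycogen in muscle: Pygm, Phka1, Phkb, Phkg1, Ugp2, Gys1, Gbe1, Ppp1r3a and Ppp1r3c. Their members are the transcript models that the authors assigned to a gene of one of these names, and all 9 genes had reads in both libraries, out of 15747 genes with a read in either. Total RNA of the gastrocnemius, a calf muscle, was sequenced with long reads. The mice were B6CASTF1/J females (hybrids of C57BL/6 with CAST) aged 14 days. The labels give a single group of 2 libraries, biological replicates 1 and 2, and name no treatment or altered allele, so there is no contrast between conditions. The biosample label of replicate 1 names 3 females, that of replicate 2 a female without a number, and both carry one donor label. Whether animals were pooled is not stated, and p-values below therefore measure only how these 2 libraries differ.

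Glycogen is the branched store of glucose in the muscle fibre. Glycogen phosphorylase releases glucose units from its chain ends, and phosphorylase kinase, a complex of alpha, beta and gamma subunits with calmodulin, switches phosphorylase on when calcium rises in contraction or when adrenaline acts through protein kinase A. In synthesis, UDP-glucose pyrophosphorylase makes the activated sugar, glycogen synthase adds it to the chain, and the branching enzyme creates branch points. Targeting subunits hold protein phosphatase 1 on the glycogen particle, where it removes phosphate from synthase, phosphorylase and phosphorylase kinase.

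The tables assigned 1248854 reads of replicate 1 and 1106450 reads of replicate 2 to annotated genes, so that 1 read is worth 0.801 and 0.904 CPM (counts scaled to the library's total of gene reads). A count of 0 allows up to 3 reads, or 2.40 and 2.71 CPM. Each read counts once whatever its length, so levels of different genes are given in CPM without division by length. Whether RNAs of different lengths were read equally well was not tested, which limits comparisons of level between genes. The libraries differed in the length of what was read, with a mean model length of 2347 bases a read in the first library and 1545 bases in the second. All 7 fast-fibre markers had reads in both libraries, with summed levels of 282363 and 191736 CPM, of which Atp2a1, the calcium pump of fast fibres, made 115580 and 35810 CPM. Myh4 (23064 and 11318 CPM) and Actn3 (6524 and 3850 CPM) were also higher in replicate 1. Tnnt3 (1315 and 2475 CPM) and Pvalb (3114 and 5857 CPM) were higher in replicate 2. Acta1 (71568 and 72383 CPM) and Ckm (61198 and 60043 CPM) differed little. The 4 slow-fibre markers summed to 1943 and 5738 CPM, of which Tnnt1, the slow troponin T, made 451 and 3892 CPM and Tnnc1 358 and 1130 CPM, while Myh7 (915 and 622 CPM) and Atp2a2 (219 and 94.9 CPM) were higher in replicate 1. The 3 Schwann cell markers summed to 434 and 2147 CPM and the 3 fibroblast markers to 7910 and 3389 CPM. The 3 endothelial markers summed to 231 and 148 CPM, the 3 blood markers to 1441 and 1263 CPM, and the adipocyte, macrophage and satellite cell markers to at most 22.4 CPM in either library. The part of these cell types in the differences below was not tested, and in bulk tissue fewer cells of a type and less RNA per cell cannot be told apart.

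Together the 9 genes took 4005 reads in replicate 1 and 1645 in replicate 2. That is 0.321% (Wilson 95% interval 0.311 to 0.331) and 0.149% (0.142 to 0.156) of gene reads, and the average was 0.235% ± 0.122 (SD, n = 2). The intervals do not overlap. Pygm alone made 58.5% (57.0 to 60.0) and 57.0% (54.6 to 59.4) of the reads of the 9 genes, where the intervals do overlap. Intervals here and below cover counting error only.

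Pygm, muscle glycogen phosphorylase (ENSMUSG00000032648.14, chr19:6384399-6398459, plus strand), had 2344 reads in replicate 1 and 938 in replicate 2, or 1877 and 848 CPM. Its mean of 1362 ± 728 CPM (SD, n = 2) was the highest of the 9, and it ranked 43rd and 138th among all genes. The brain form Pygb had 17 and 4 reads, and the liver form Pygl had 3 and 0, where 0 of 942 phosphorylase reads allows a share of up to 0.318%. Pygm thus held 99.2% and 99.6% of phosphorylase reads. A full splice chain here is the run of introns of any model, annotated or not, that was not classed as incomplete or genomic. Such a chain can be shorter than the longest transcript of the gene. Of the Pygm reads with a full splice chain, the 20-exon chain of Pygm-201 took 1540 of 1583 (97.3%) and 444 of 467 (95.1%). The next chains were that of the 3-exon Pygm-203, with 7 and 8 reads, and an unannotated 20-exon chain with 1 intron outside the annotation, with 9 and 4 reads.

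Phosphorylase kinase was read at a lower level than its substrate. The catalytic gamma subunit Phkg1 (ENSMUSG00000025537.12, chr5:129863421-129898549, minus strand) had 204 and 122 reads, or 163 and 110 CPM (mean 137 ± 37.5). The regulatory alpha subunit Phka1 (ENSMUSG00000034055.16, chrX:102513975-102644246, minus strand) had 244 and 61 reads, or 195 and 55.1 CPM (mean 125 ± 99.2). The regulatory beta subunit Phkb (ENSMUSG00000036879.15, chr8:85840959-86061376, plus strand) had 145 and 46 reads, or 116 and 41.6 CPM (mean 78.8 ± 52.7; SD, n = 2 for all 3). In both libraries Phkb was the least read of the 3, while Phka1 led in replicate 1 and Phkg1 in replicate 2. The paralogs expressed in liver and other tissues were nearly absent: Phka2 had 5 and 1 reads, leaving Phka1 with 98.0% and 98.4% of alpha reads, and Phkg2 had 8 and 4 reads, leaving Phkg1 with 96.2% and 96.8% of gamma reads.

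All 5 exons of the 9 genes that met the limits for an alternative exon (20 or more informative reads per library, pooled inclusion of 5 to 95%) lay in these 3 subunits. The sequences of the annotated ones, read from the GENCODE M21 transcripts on mm10, are shown with 15 bases of the neighbouring exons on each side, in capitals for the exon itself, because they are the segments by which the transcripts of a subunit differ.
Phka1 177-base exon, chrX:102557096-102557272, minus strand: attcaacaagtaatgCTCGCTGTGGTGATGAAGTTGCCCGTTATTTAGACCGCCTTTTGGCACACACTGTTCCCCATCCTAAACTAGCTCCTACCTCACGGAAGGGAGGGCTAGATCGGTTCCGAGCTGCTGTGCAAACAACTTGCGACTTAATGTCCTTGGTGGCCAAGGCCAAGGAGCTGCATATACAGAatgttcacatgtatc
Phkb annotated 91-base exon, chr8:86026457-86026547, plus strand: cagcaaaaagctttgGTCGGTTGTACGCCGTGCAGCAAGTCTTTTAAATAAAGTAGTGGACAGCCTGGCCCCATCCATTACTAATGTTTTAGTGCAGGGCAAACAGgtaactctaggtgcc
Phkg1 66-base exon, chr5:129869461-129869526, minus strand: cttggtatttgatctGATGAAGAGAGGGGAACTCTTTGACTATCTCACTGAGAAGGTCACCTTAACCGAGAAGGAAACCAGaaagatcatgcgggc

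The Phka1 exon was present in most reads of this muscle but not in all. It was held by 158 of 220 informative reads in replicate 1 (71.8%, Wilson 65.5 to 77.3) and 39 of 47 in replicate 2 (83.0%, 69.9 to 91.1), which averages 77.4% ± 7.89 (SD, n = 2). Informative reads either hold the exon with both its ends or have an intron that spans it. The 11.2-point lower inclusion in replicate 1 did not pass the test (Fisher's exact test, two-sided, Benjamini-Hochberg over 1027 exons, adjusted p = 0.79). Alpha and alpha prime subunits of the kinase are known to come from alternative splicing of this gene, the shorter alpha prime being the form of slow muscle and heart. Leaving out the 177 bases removes 59 codons without a shift of frame. As whole chains, the 33-exon Phka1-202, which holds the exon, had 129 and 32 reads, or 65.5% and 72.7% of full splice reads. The 32-exon Phka1-201, which lacks it and has 3546 coding bases against 3723, had 43 and 7 reads. Another chain, of 32 exons and with 1 intron outside the annotation, had 2 and 1 reads.

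In Phkb, most reads carried an exon that GENCODE M21 does not list, and nearly all of those that span its place. This 91-base exon at chr8:86025198-86025288 was held by 127 of 135 informative reads in replicate 1 (94.1%, 88.7 to 97.0) and 30 of 33 in replicate 2 (90.9%, 76.4 to 96.9). Over all reads of the gene, which include those that do not span this place, these are 87.6% and 65.2%. The annotated 91-base exon printed above, which lies downstream, was held by the remaining 8 of 135 (5.93%) and 3 of 33 (9.09%). The counts of either exon were those of the reads that skip the other, so each informative read held one exon in place of the other, and their equal length keeps the reading frame the same. Transcripts of this gene are known to choose between a pair of mutually exclusive exons. For neither exon did the difference between the libraries pass (Fisher's exact test, adjusted p = 1 for each).

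Most Phkb reads also skipped the second exon, which holds a start codon. The 109-base exon at chr8:85843004-85843112 was held by 7 of 126 reads (5.56%, 2.72 to 11.0) and 1 of 30 (3.33%, 0.591 to 16.7). The annotated full-length transcript, Phkb-201, begins translation inside this exon, at base 85843061. Its coding part is shown with the start codon in capitals, since the leading chain omits it.
Phkb second exon, coding part, chr8:85843061-85843112, plus strand: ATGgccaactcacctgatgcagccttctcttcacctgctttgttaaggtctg
Phkb-206, a shorter annotated transcript, starts translation at base 85841028 in the first exon. The leading Phkb chain, of 31 exons, joined the first exon past the second one and held the unannotated 91-base exon. It had 109 of 130 full splice reads in replicate 1 (83.8%) and 23 of 33 in replicate 2 (69.7%), and 2 of its introns lie outside the annotation. The second chain, also of 31 exons, used the annotated 91-base exon without the second exon and had 5 and 3 reads. Reads of annotated Phkb chains numbered only 3 of 145 and 2 of 46, so a count restricted to annotated transcripts would put the gene at a mean of 2.97 CPM instead of 78.8.

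Phkg1 was close to uniform. Its 66-base exon, 22 codons of the kinase coding sequence, was held by 185 of 195 reads (94.9%, 90.8 to 97.2) and 97 of 104 (93.3%, 86.8 to 96.7). The 10-exon Phkg1-201 took 159 of 185 full splice reads (85.9%) and 79 of 94 (84.0%), and a 9-exon chain with 1 intron outside the annotation took 10 and 4 reads. A 10-exon chain, again with 1 such intron, had 3 reads in each library. Of 5 alternative exons tested in the 9 genes, 0 were called different between the libraries and 0 had an unadjusted p under 0.05, where 1.27% of all 1027 exons tested were called (adjusted p under 0.05 and at least 10 percentage points).

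**Figure D1:**
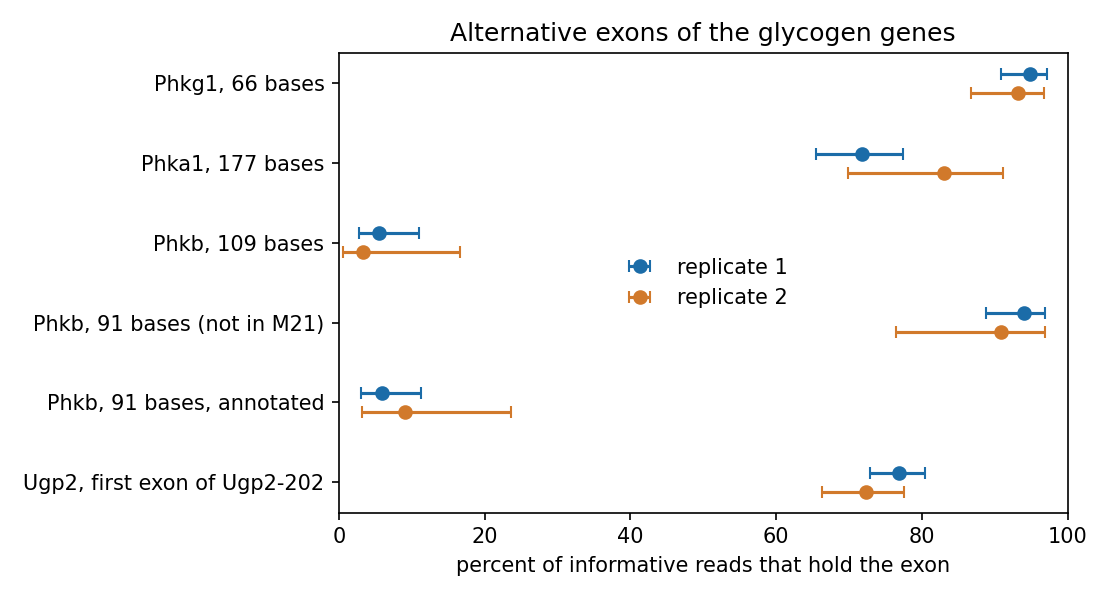
Percent of informative reads that held each alternative exon of the phosphorylase kinase genes, and the first exon of Ugp2-202 among Ugp2 reads with either first exon, in replicate 1 (blue) and replicate 2 (orange), with Wilson 95% intervals. The intervals of the 2 libraries overlap at every exon, and the 2 Phkb exons of 91 bases mirror each other, at 94.1% and 5.93% in replicate 1.

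On the side of synthesis, Ugp2, UDP-glucose pyrophosphorylase (ENSMUSG00000001891.16, chr11:21321138-21371201, minus strand), stood second among the 9 genes. It had 489 and 261 reads, or 392 and 236 CPM (mean 314 ± 110; SD, n = 2). Transcripts began at either of 2 first exons in both libraries. The first exon of Ugp2-202, nearer to the shared second exon, was used by 366 of 476 reads in replicate 1 (76.9%, 72.9 to 80.5) and 175 of 242 in replicate 2 (72.3%, 66.4 to 77.6), which averages 74.6% ± 3.24 (SD, n = 2). The remaining 23.1% and 27.7% used the farther first exon of Ugp2-201. As full chains of 10 exons each, Ugp2-202 had 358 and 174 reads and Ugp2-201 had 108 and 67.

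The choice of first exon changes the start of the protein. Translation of Ugp2-201 begins in the shared second exon, while Ugp2-202 brings a start codon of its own 33 bases, or 11 codons, earlier in frame, for 1524 coding bases against 1491. The stretch of Ugp2-202 from the first of these start codons to the second is shown with both in capitals, followed by the 250 bases before each start, from the RefSeq promoter table (GRCm38.p6), because reads came from both starts. Capitals in the promoters mark GGGCGG on either strand.
Ugp2-202 start codons, chr11:21354390-21370205 spliced, minus strand: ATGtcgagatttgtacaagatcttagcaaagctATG
Promoter of the farther start, chr11:21371268-21371517, minus strand: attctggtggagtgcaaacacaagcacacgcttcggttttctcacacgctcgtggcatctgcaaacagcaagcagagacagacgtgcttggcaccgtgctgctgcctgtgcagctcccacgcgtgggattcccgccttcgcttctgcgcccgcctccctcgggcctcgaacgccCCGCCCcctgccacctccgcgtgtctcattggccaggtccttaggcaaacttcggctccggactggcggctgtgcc
Promoter of the nearer start, chr11:21370630-21370879, minus strand: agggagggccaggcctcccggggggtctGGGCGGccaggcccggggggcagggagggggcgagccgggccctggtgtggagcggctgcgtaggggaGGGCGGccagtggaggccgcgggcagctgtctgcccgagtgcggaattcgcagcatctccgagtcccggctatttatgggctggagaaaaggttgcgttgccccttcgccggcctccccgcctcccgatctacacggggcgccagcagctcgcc
The nearer start, that of the first exon with more reads, had a GC content of 73.6% in these 250 bases. The farther one had 64%, and the median over 32851 windows of the table was 52.4%. GGGCGG, the core of GC boxes, matched 2 times in the nearer and 1 time in the farther window, and 32.7% of all windows held it. TATAAA, held by 12.4% of windows, and CATTCC, held by 12.6%, matched in neither. All motifs were counted on both strands, and the matches in these windows overlap no other match of these 3 motifs.

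Gys1, the glycogen synthase of muscle (ENSMUSG00000003865.16, chr7:45434844-45456619, plus strand), had 343 and 121 reads, or 275 and 109 CPM (mean 192 ± 117; SD, n = 2). The liver synthase Gys2 had 0 reads in both, where 0 of 343 and 0 of 121 synthase reads allow shares of up to 0.875% and 2.48%. The 16-exon Gys1-201 took 255 of 265 full splice reads (96.2%) and 71 of 77 (92.2%). Each of 2 unannotated chains, of 17 and 9 exons with 1 intron outside the annotation, had 2 or 3 reads a library.

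Gbe1, the branching enzyme (ENSMUSG00000022707.16, chr16:70313949-70569716, plus strand), had 92 and 43 reads, or 73.7 and 38.9 CPM (mean 56.3 ± 24.6; SD, n = 2). None of these reads was placed in a known model, which allows shares of up to 3.26% and 6.98%. A single chain of 16 exons took 82 of 87 full splice reads in replicate 1 (94.3%) and 35 of 35 in replicate 2. Of its 15 introns, 14 are in Gbe1-203. The remaining intron was read at bases 70401850 to 70433544, where Gbe1-203 has 70401854 to 70433548, so both ends lie 4 bases earlier. The spliced bases around the junction are the same under either placement, as the 40 bases show, in which the capitals are the 4 bases that follow the junction as read and precede it in Gbe1-203.
Gbe1 junction, chr16:70401830-70433564 spliced, plus strand: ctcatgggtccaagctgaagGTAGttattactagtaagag
From start to stop codon, the 2106 bases of the leading chain and of Gbe1-203 were identical in the reference sequence. The intron as read is itself annotated, in Gbe1-201, so that every intron of the chain is annotated and only their combination is not, while the leading Phkb chain holds an exon outside the annotation.

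The glycogen-targeting subunits of protein phosphatase 1 stood near the lower end of the 9 genes, and Ppp1r3a was the least read. Ppp1r3c (ENSMUSG00000067279.3, chr19:36731731-36736653, minus strand), the subunit also called PTG, had 117 and 32 reads, or 93.7 and 28.9 CPM (mean 61.3 ± 45.8). Ppp1r3a (ENSMUSG00000042717.5, chr6:14713977-14755274, minus strand), the subunit of striated muscle also called GM, had 27 and 21 reads, or 21.6 and 19.0 CPM (mean 20.3 ± 1.87; SD, n = 2 for both). The level of Ppp1r3a was thus nearly the same in the libraries, while Ppp1r3c stood 3.24 times higher in replicate 1 in CPM. Among reads of the 7 targeting subunits, Ppp1r3c held 73.6% (66.2 to 79.8) and 55.2% (42.5 to 67.3) and Ppp1r3a 17.0% (11.9 to 23.6) and 36.2% (25.1 to 49.1). Ppp1r3d had 6 and 2 reads, Ppp1r3e 3 and 2, Ppp1r3f 5 and 1, Ppp1r3b, the liver form, 1 and 0, and Ppp1r3g 0 and 0, where 0 reads allow shares of up to 1.89% and 5.17%. Nearly all full splice reads of Ppp1r3c, 61 of 62 and 13 of 13, had the 2 exons of Ppp1r3c-201. The 4-exon Ppp1r3a-201 had 18 of 21 and 9 of 13, and another 4-exon chain with 1 intron outside the annotation had 2 in each.

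In order of mean CPM the 9 genes ran Pygm, Ugp2, Gys1, Phkg1, Phka1, Phkb, Ppp1r3c, Gbe1 and Ppp1r3a. Only Pygm against Ugp2 and Gbe1 against Ppp1r3a were neighbours whose values did not overlap between libraries. At the other 6 steps the ranges over the 2 libraries overlapped. Within each library, however, Ugp2 lay above Gys1 with exact Poisson intervals of the count apart. In replicate 1 these were 358 to 428 CPM for Ugp2 and 246 to 305 CPM for Gys1. In replicate 2 they were 208 to 266 and 90.7 to 131 CPM. Phka1 over Phkb and Phkb over Ppp1r3c also kept their order in both libraries, but their intervals overlapped in replicate 2. At the remaining steps the order changed between the libraries, so it is not resolved. Pygm stood 2.12 above Ugp2 on the log2 scale of mean CPM, and Gbe1 stood 1.47 above Ppp1r3a.

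**Figure D2:**
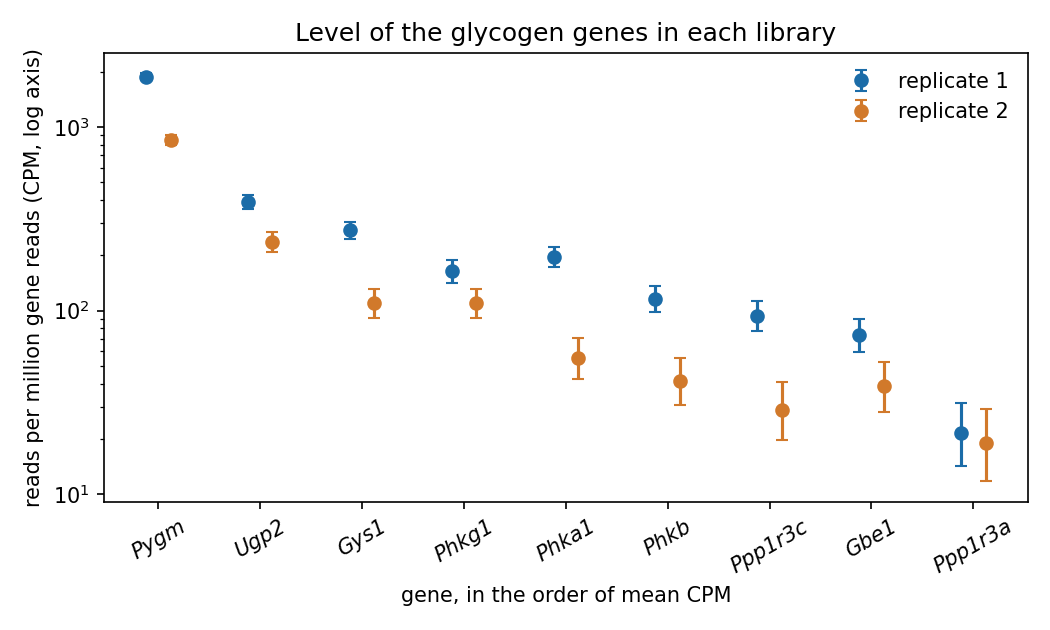
Level in CPM (log axis) of each gene in replicate 1 (blue) and replicate 2 (orange), with exact Poisson 95% intervals of the count, in the order of mean CPM. Pygm lies at 1877 and 848 CPM, above every other gene in both libraries, and Ppp1r3a lies lowest, at 21.6 and 19.0 CPM.

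The comparison of the 2 libraries asks how far replicates differ, and 8 of the 9 genes had a log2 ratio of replicate 1 over replicate 2 above 0. The median was 0.86, beside a median of -0.01 over all 8973 genes tested (10 or more reads over both libraries). Ratios are of CPM scaled by TMM, which lowers each ratio by 0.28 (log2) against plain CPM. Fisher's exact test used the unscaled reads, so its p-values leave this scaling out. A gene was called different at an adjusted p under 0.05 (Fisher's exact test, two-sided, on its reads against those of all other genes, Benjamini-Hochberg) with a log2 ratio of at least 1 in size. By this rule 4 of 9 genes were higher in replicate 1, where 8.83% of all genes tested were called, and 0 were higher in replicate 2, where 11.4% were called. Scaled by the total alone, 5 of 9 genes were called higher in replicate 1, beside 12.4% of all genes, and 0 in replicate 2, beside 9.03%.

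The 4 genes called were Phka1, with a log2 ratio of 1.53 (Fisher's exact test, adjusted p = 4.40e-21), Ppp1r3c with 1.40 (2.58e-09), Phkb with 1.19 (1.30e-09) and Gys1 with 1.04 (9.47e-19). Pygm, at 0.86, had the smallest adjusted p (9.46e-101) and stayed under the fold threshold, as did Gbe1 at 0.63, Ugp2 at 0.45 and Phkg1 at 0.28. Ppp1r3a had -0.10 (adjusted p = 0.81), and 0.18 when scaled by the total alone, where all 9 genes lay above 0. Differences between the ratios of phosphorylase and the subunits of its kinase were not tested.

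The ratio of a gene moved with its mean model length per read, across all genes. This length averages over the models read in both libraries, incomplete and genomic ones included. It is therefore not the length of the whole transcript, and it depends partly on how many reads each library gave. The part of this dependence in the trend was not tested. At the length of Phkg1, 2236 bases per read, the trend of all genes was 0.11, at that of Pygm (2517 bases) 0.23, at that of Gys1 (3246 bases) 0.46, at that of Phkb (4015 bases) 0.61 and at that of Phka1 (5278 bases) 0.68. With this trend removed, Ppp1r3c remained at 1.15 and was called (exact binomial test, adjusted p = 3.50e-04), while Phka1 at 0.85 and Phkb and Gys1 at 0.58 were not. That leaves 1 of 9 genes beside 2.4% of all genes called in that direction and 4.25% in the other. By adjusted p alone, Phka1 (2.44e-04), Gys1 (1.34e-03) and Pygm at 0.63 (1.44e-29) still passed in the exact binomial test and missed only the fold threshold. Phkb (adjusted p = 0.098) and the remaining genes did not pass in that test. The median of the 9 genes was then 0.58 and that of all genes 0.01. Ppp1r3a, among the longest at 4882 bases per read, lay 0.78 below the trend.

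**Figure D3:**
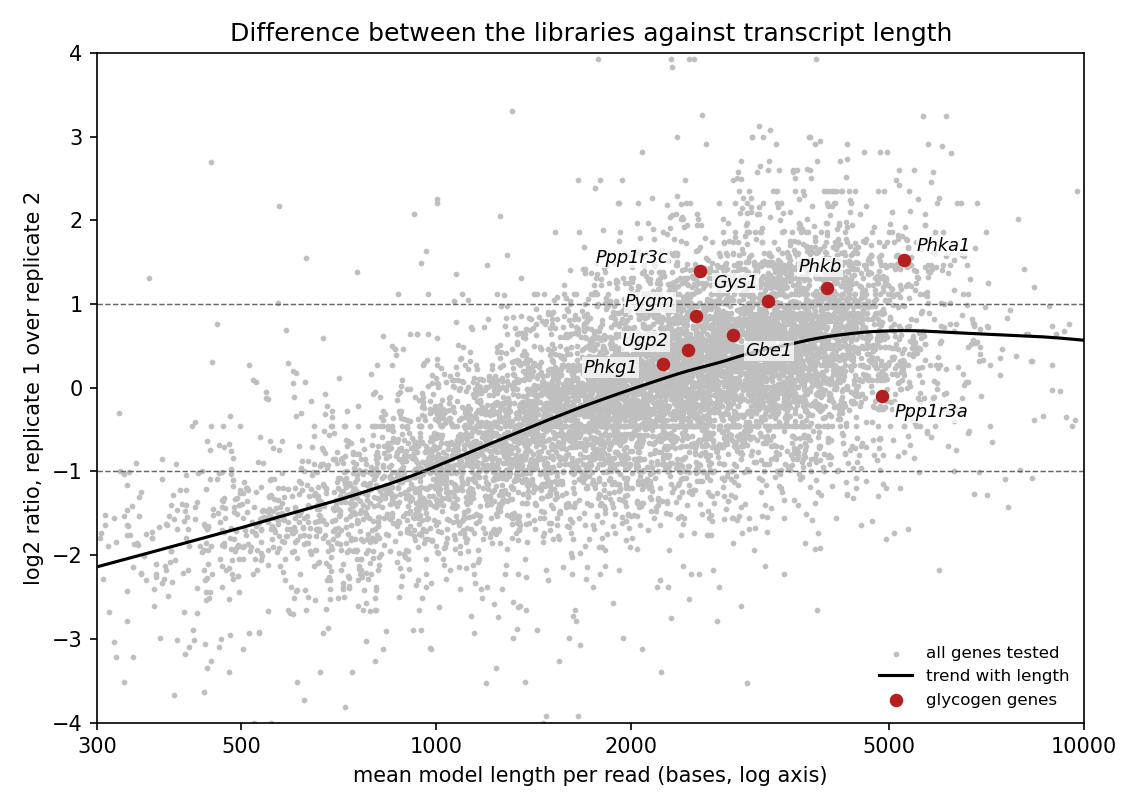
Log2 ratio of replicate 1 over replicate 2 against the mean model length per read (log axis) for all genes tested (grey), with the trend over all genes (line), the 9 glycogen genes (red) and the fold threshold (dashed). The axes leave out 129 of 8973 genes. All glycogen genes but Ppp1r3a lie above the line, and Phka1, Ppp1r3c, Phkb and Gys1 lie above the upper threshold.

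A smaller share of the reads of these genes was in full splice chains in replicate 2. Full splice chains held 3001 of 4005 reads in replicate 1 (74.9%, 73.6 to 76.2) and 1019 of 1645 in replicate 2 (61.9%, 59.6 to 64.3), against 89.1% and 80.6% over all genes. The mean for the 9 genes was 68.4% ± 9.18 (SD, n = 2). Incomplete splice matches (ISM), models that hold part of an annotated chain, made 24.3% and 29.5% of the reads of the 9 genes and 8.80% and 12.9% of those of all genes. Genomic models, which overlap a gene without its splicing, made 0.799% and 8.57% of the reads of the 9 genes and 2.06% and 6.49% of all.

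By gene, the full splice share was highest in Ugp2, at 96.3% and 93.1%, and was 94.6% and 81.4% in Gbe1. It was lowest in Ppp1r3c, at 53.0% and 40.6%. Pygm had 67.5% and 49.8%, and its 32.5% and 42.6% of ISM reads were the main complement. Genomic models of Pygm had 0 reads in replicate 1 and 71 in replicate 2, all in a single 748-base model at the 3' end of the gene (chr19:6397712-6398459). In Ppp1r3c, a 2624-base single-exon ISM model held 54 reads of replicate 1, while a 1663-base genomic model with the same 3' end held 19 reads of replicate 2. Ppp1r3a showed the same kind of difference, with 6 reads in a genomic model of 4870 bases in replicate 1 and 8 in one of 340 bases in replicate 2, both ending at base 14713977.

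**Figure D4:**
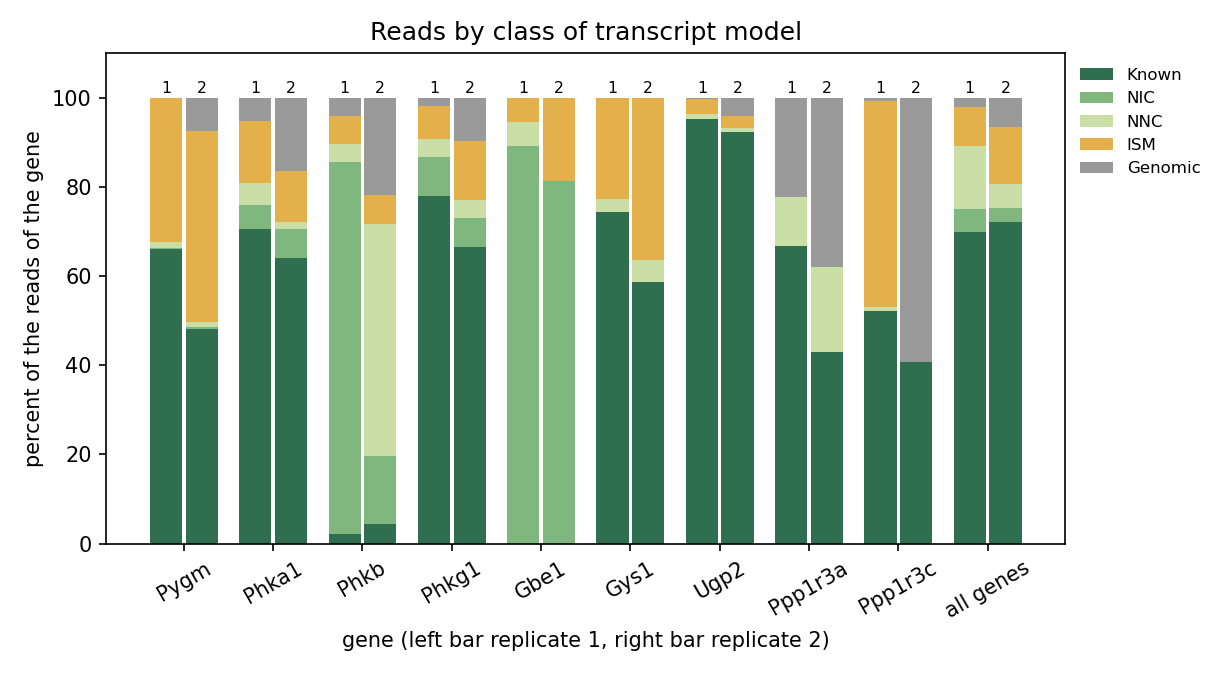
Percent of the reads of each gene, and of all genes, in known, NIC (unannotated chains of known splice sites by the tables' classes), NNC (unannotated chains with another splice site), ISM (part of an annotated chain) and genomic models, with replicate 1 as the left and replicate 2 as the right bar. Known models hold none of Gbe1 and at most 4.35% of Phkb, and the ISM share is larger in Pygm and Gys1 than in all genes. The leading Phkb chain has the same introns in both libraries but is classed NIC in replicate 1 and NNC in replicate 2, so these 2 colours do not separate its chains.

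Along the leading chain of Pygm, the share of its reads that held an intron was larger towards the 3' end. The first intron was held by 66.2% of reads in replicate 1 (64.3 to 68.1) and 47.8% in replicate 2 (44.6 to 51.0), the fifth by 85.8% and 68.8%, and the last, intron 19, by 99.0% and 92.4%. Gys1 ran from 76.4% and 62.0% at its first intron to 93.9% and 82.6% at its last, intron 15. Phkb began at 80.7% and 58.7%, and Phka1 at 80.3% and 70.5% and ended at 92.6% and 82.0% at intron 32. In Ugp2 the second intron, shared by both starts, was held by 97.8% and 93.1% of reads. Replicate 2 was lower at the first intron of each of the 9 genes, with intervals apart only in Pygm, Gys1 and Phkb. In Phkb this intron skips the second exon, so its share also depends on that exon, and intron 2 was held by 89.7% and 65.2%. The part of the lower first-intron shares in the gene ratios was not tested. With full splice reads alone, the log2 ratio of Pygm was 1.15 (Fisher's exact test, adjusted p = 3.94e-91), which makes 5 of 9 genes called higher in replicate 1, beside 11.4% of all genes in this setting, and 0 higher in replicate 2, beside 10.9%.

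**Figure D5:**
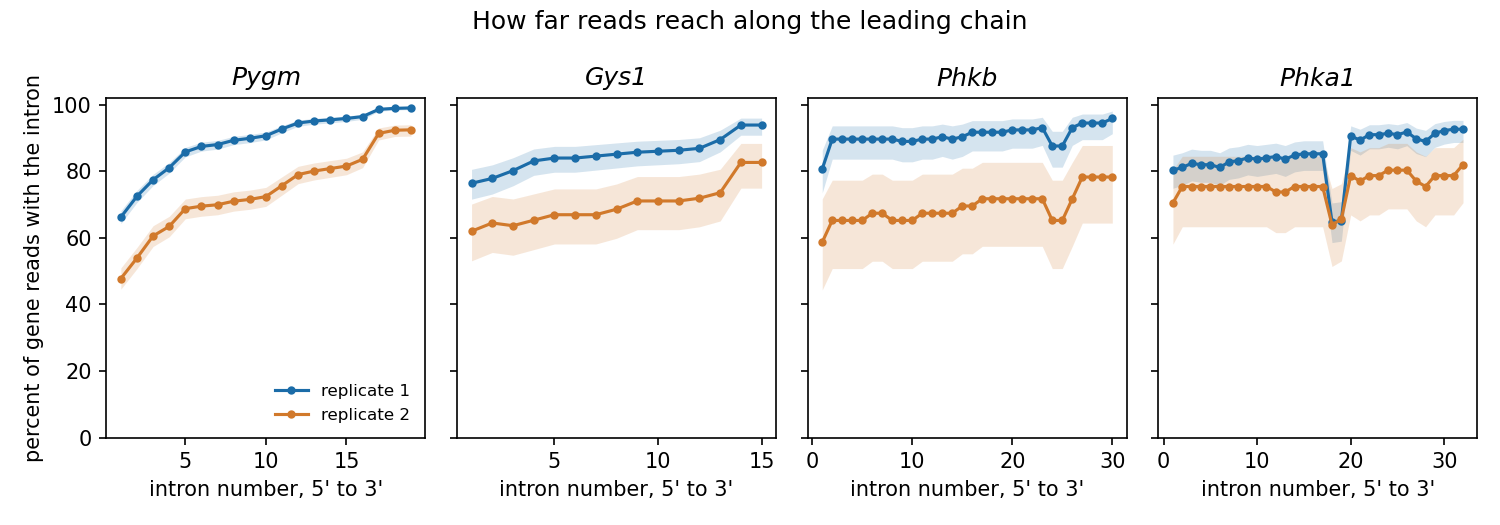
Percent of all reads of Pygm, Gys1, Phkb and Phka1 that hold each intron of the leading chain, numbered from the 5' end, in replicate 1 (blue) and replicate 2 (orange), with Wilson 95% intervals as bands. Pygm runs from 66.2% and 47.8% to 99.0% and 92.4%, and the drop at introns 18 and 19 of Phka1 and at introns 24 and 25 of Phkb marks the alternative exons described above.

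The share of the leading chain was compared where reads allowed. Of the 9 genes, 4 had at least 50 full splice reads in each library, and 0 of these were called by Fisher's exact test, where 2.04% of 1425 genes tested were called. Pygm-201, at 97.3% and 95.1%, had an unadjusted p of 0.024 in Fisher's exact test (adjusted p = 0.35), the only one of the 4 under 0.05. Ugp2-202 differed by 4.40 percentage points, Gys1-201 by 4.02 and Phkg1-201 by 1.90.

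Among 12 other glycogen enzymes with reads, the highest was Pgm1, a phosphoglucomutase that links glucose 1-phosphate with glucose 6-phosphate, at 1162 and 935 CPM. Gyg, the glycogenin that primes new glycogen, had 234 and 189 CPM. Gaa, the lysosomal glucosidase, had 246 and 110 CPM and Stbd1, which binds glycogen, 115 and 170 CPM. Of the 8 tested, 1 was called, the brain phosphorylase Pygb higher in replicate 1 (13.6 and 3.62 CPM), beside 8.83% of all genes in that direction. With the length trend removed 0 were called, beside 2.4% of all genes higher in replicate 1 and 4.25% higher in replicate 2. Of protein phosphatase 1, the catalytic subunits Ppp1ca (262 and 308 CPM), Ppp1cb (218 and 113 CPM) and Ppp1cc (81.7 and 56.9 CPM) and the inhibitors Ppp1r2 (138 and 94.9 CPM) and Ppp1r1a (73.7 and 111 CPM) were tested. Their log2 ratios lay between -0.88 and 0.66, and 0 of 5 passed the fold threshold. By adjusted p alone, Ppp1ca (0.095) and Ppp1cc (0.068) did not pass in Fisher's exact test, and the other 3 did. The list medians of the log2 ratio were 0.22 for the enzymes and 0.23 for the phosphatase, below the 0.86 of the 9 genes. With the length trend removed they were 0.32 for the enzymes and -0.04 for the phosphatase, beside 0.58 for the 9 genes.

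Of the upstream regulators, 16 of 17 were tested. Of these, 4 were called higher in replicate 1, beside 8.83% of all genes tested, and 1 higher in replicate 2, beside 11.4%. Among the first were the protein kinase A subunit Prkar2a (159 and 55.1 CPM), the AMP-activated kinase subunits Prkaa1 (14.4 and 3.62 CPM) and Prkaa2 (36.8 and 9.94 CPM). The other was Calm2 (134 and 351 CPM), which encodes calmodulin, the calcium-binding subunit of phosphorylase kinase. With the length trend removed, 1 was called in each direction, beside 2.4% of all genes higher in replicate 1 and 4.25% higher in replicate 2. Calm3, which also encodes calmodulin, had 303 and 250 CPM. Prkar1a, another regulatory subunit of protein kinase A, had 239 and 192 CPM. Prkaca, the catalytic subunit of protein kinase A, had 579 and 371 CPM, and Prkag3, the AMP-activated kinase subunit of fast muscle, 141 and 108 CPM.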

How the data were processed

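For each library there are raw read counts per transcript model, as deposited, and the exons of each model, with lengths and other model fields per the file headers. Per the notes beside the files, both derive from a filtered alignment to mm10 with GENCODE M21, and the file attributes name TALON. The aligner, the tool versions and the platform were not given in the sources used here. Reads of a gene were summed over all models assigned to it, without spike-ins and unannotated loci. TMM factors came from edgeR 4.0.16 and alternative size factors from DESeq2 1.42.0. Fisher's exact tests used scipy 1.17.1 with Benjamini-Hochberg adjustment, for the gene ratios over genes with 10 or more reads in both libraries together. They ran on raw reads and totals without TMM, while the log2 ratios used TMM and a prior count of 0.5. Exons needed 20 informative reads in each library and pooled inclusion of 5 to 95%, and chains, matched between libraries by introns, 50 reads. The length trend is a loess (fraction 0.3) on log2 mean model length. The scripts were tested on simulated data. The 9 genes and all lists were chosen with earlier results of these data known. Named are all 9 genes, up to 3 of their chains, their alternative exons and, from each list, up to 6 genes by mean CPM. Called genes of a list outside these 6 (Prkar2a, Prkaa1 and Prkaa2), the paralogs, the promoters, the model ends and the introns shown were chosen after their values were seen. Some genes of the lists are not reported here.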

Additional observations from a re-analysis of the deposited data

Results flagged for a closer look

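Reads of unannotated loci on the strand opposite to 4 of the 9 genes passed 3, the limit that a count of 0 allows, and these reads enter no value above. Within the span of Pygm there were 6 such reads in replicate 1 and 17 in replicate 2. Within that of Phkg1, which overlaps the annotated gene Sumf2 on the other strand, there were 4 and 20, and within that of Ppp1r3a 4 and 8. Phka1 had 6 in replicate 2. At most 3 such reads were found in either library at each of the other 5 genes.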

How the results depend on the processing

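With 2 libraries of 1 group, the number of reads and the spread between 2 values limit every statement, and exons or chains of genes with few reads could not be tested. No paired analysis was possible because there is a single group. With the length trend removed, the count of genes higher in replicate 1 fell from 4 to 1. The lost calls were Phka1 (log2 ratio 0.85) and Gys1 (0.58), which missed only the fold threshold, and Phkb (0.58), which also missed by adjusted p. The cause was not tested. Pygm passed the fold threshold with total scaling (1.15), known models only (1.18) and full splice chains only (1.15). Ppp1r3a, not called in any setting, changed sign with total scaling (0.18), known models (0.37) and full splice chains (0.065). Known models only put Phkb at 2.97, Gbe1 at 0 and Ppp1r3a at 16.0 CPM, and full splice chains put Ppp1r3a at 16.7 CPM. With total scaling, and with full splice chains only, 5 genes were called higher in replicate 1. No setting called any of the 9 genes higher in replicate 2, and none called an exon or a leading chain of them. With each library alone, the share of the 9 genes was 0.321% in replicate 1 and 0.149% in replicate 2.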
